A study of Sus scrofa with 12 samples.

Results

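Transcripts of 9 genes of fat cells and lipid synthesis were followed in a back muscle of the Meishan pig, the longissimus dorsi. The genes were FABP4, ADIPOQ, LEP, CFD, CIDEA, ME1, SCD, FASN and LPL. Every probe set whose symbol in the platform annotation was 1 of these names was taken, whatever its values, which gave 9 of the 6765 genes named on the array and 17 of its 24123 probe sets. LEP and FASN had 4 probe sets each, LPL and ME1 had 2 each, and the other genes had 1 each. All 9 genes had at least 1 probe set bright enough to be tested, and 13 of the 17 probe sets were tested. The 4 others were a pair of LEP probe sets that the array design names as controls, 1 dim LEP probe set and 1 dim FASN probe set, and they are described by their values.

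The samples came from fetuses at 65 days post coitus (dpc) and from pigs at 3, 60 and 120 days after birth, with 3 arrays at each of the 4 stages and 12 in all. All animals were of the Meishan, a Chinese breed known for its fatness, kept under ordinary commercial feeding and not treated. The fetuses of 1 sow counted as 1 individual. The labels call the arrays of a stage biological replicates and give neither sex nor the litter of the animals after birth.

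Fat inside a muscle lies in adipocytes between the fibres, and the fibres themselves take up, store and burn fatty acids. Adipocytes arise from mesenchymal progenitors under CEBPA and PPARG, fill with triglyceride, and secrete hormones such as leptin and adiponectin. Fatty acids reach a cell either from lipoproteins, through lipoprotein lipase at the capillary wall, or from new synthesis, for which fatty acid synthase joins carbon units with NADPH from enzymes such as malic enzyme and stearoyl-CoA desaturase adds a double bond. RNA was measured in whole muscle, so more cells of a type and more RNA per cell cannot be told apart.

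Values are linear intensities as deposited, 1 per probe set and array, and are compared only within a probe set. Changes are differences of log2(intensity + 21) from a single limma fit over 16166 probe sets, given with the standard error (SE) and a Benjamini-Hochberg adjusted p, and a probe set is called higher or lower where that p is under 0.05. Adding 21 shrinks the change of dim probe sets. Array medians lay between 49.1 and 52.6, and 2 quality measures differed on average between the 9 arrays after birth and the 3 fetal ones. For actin the signal at the 3-prime end over that at the 5-prime end averaged 2.45 ± 0.168 on fetal arrays, and 3.61 ± 1.06, 5.10 ± 1.17 and 5.08 ± 0.896 on the 3-, 60- and 120-day arrays (SD, n = 3 each). Replicate 3 at 3 days, at 2.58, lay inside the fetal range of 2.32 to 2.64, while the other 3-day arrays had 4.69 and 3.56. The spiked control bioB read 236 to 320 after birth, against 151 to 195 in the fetus. When arrays were centred on such spiked controls, the median probe set stood at -0.24 (log2) at 3 days against 65 dpc and at -0.36 at 120 days against 65 dpc. The split of calls then turned to 1574 higher and 5175 lower at 3 days against 65 dpc, where the deposited scale gave 3286 and 3659. Against the fetus it was 1481 higher and 6596 lower at 120 days and 1242 higher and 5547 lower at 60 days, where the deposited scale gave 3778 and 4048, and 3024 and 3291. Between stages after birth it was 64 higher and 136 lower at 60 days against 3 days (127 and 120 as deposited) and 190 higher and 496 lower at 120 days against 3 days (371 and 343 as deposited). Neither scale was tested as a measure of RNA per cell.

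FABP4, the fatty acid carrier of adipocytes that capillary endothelium and macrophages also make, was lowest in the fetus. Its probe set, Ssc.1089.1.S1_at, read 224, 336 and 483 on the fetal arrays, 922, 1194 and 379 at 3 days, 1096, 985 and 1158 at 60 days and 1049, 939 and 707 at 120 days. All arrays at 60 and 120 days were above all fetal arrays, while the third 3-day array lay inside the fetal range. Against the fetus, FABP4 was higher by 1.64 ± 0.37 at 60 days (adjusted p = 0.00462) and by 1.36 ± 0.37 at 120 days (adjusted p = 0.0101). It was higher by 1.13 ± 0.37 at 3 days (adjusted p = 0.0289). That call failed when 1 of 4 arrays was left out, with adjusted p of 0.111 and 0.0656 for fetal replicates 1 and 2, and 0.0981 and 0.125 for 3-day replicates 1 and 2. It also failed on the spiked-control scale (adjusted p = 0.0679). The low 3-day array, replicate 3, is the one whose actin ratio lay in the fetal range, and what that adds was not tested. No difference between the 3 stages after birth was called. The fetal array with the highest FABP4, replicate 3, also held 3575 of the macrophage transcript C1QC, against 288 and 134 on the other fetal arrays. What macrophages add to FABP4 was not tested.

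LPL, the lipase that frees fatty acids from lipoprotein triglyceride and is made by muscle fibres as well as adipocytes, followed a similar course on both its probe sets. Ssc.16335.1.S2_at read 229, 426 and 137 in the fetus, 671, 561 and 674 at 3 days, 1578, 530 and 711 at 60 days and 522, 594 and 515 at 120 days. Ssc.16335.1.S1_at read 169, 309 and 130 in the fetus, 521, 428 and 587 at 3 days, 1419, 371 and 549 at 60 days and 366, 406 and 441 at 120 days. On both, every array after birth was above every fetal array, and the order of the stage means was 60 days, 3 days, 120 days and the fetus. The top place of 60 days rests on replicate 1, which was 2.54 and 3.09 times the mean of the other 60-day arrays on the 2 probe sets.

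LPL was higher at 60 days against 65 dpc by 1.73 ± 0.40 on Ssc.16335.1.S2_at (adjusted p = 0.00474) and by 1.70 ± 0.41 on Ssc.16335.1.S1_at (adjusted p = 0.00637). At 3 days against 65 dpc the changes were 1.33 ± 0.40 (adjusted p = 0.0180) and 1.32 ± 0.41 (adjusted p = 0.0214). Leaving out fetal replicate 3 (adjusted p = 0.0675) or 3-day replicate 1 (0.0524) ended the 3-day call on Ssc.16335.1.S2_at. On Ssc.16335.1.S1_at the same was true of fetal replicates 1 and 3 (adjusted p = 0.0602 and 0.0717) and of 3-day replicates 1 and 3 (0.0561 and 0.0585). At 120 days against 65 dpc only Ssc.16335.1.S2_at was called, at 1.11 ± 0.40 (adjusted p = 0.0351), which no longer passed without fetal replicate 1 or 3 (adjusted p = 0.0812 and 0.135) or any of 120-day replicates 1, 2 and 3 (0.0703, 0.0940 and 0.0709). That change was 0.68 on the spiked-control scale (adjusted p = 0.200).

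**Figure D1:**
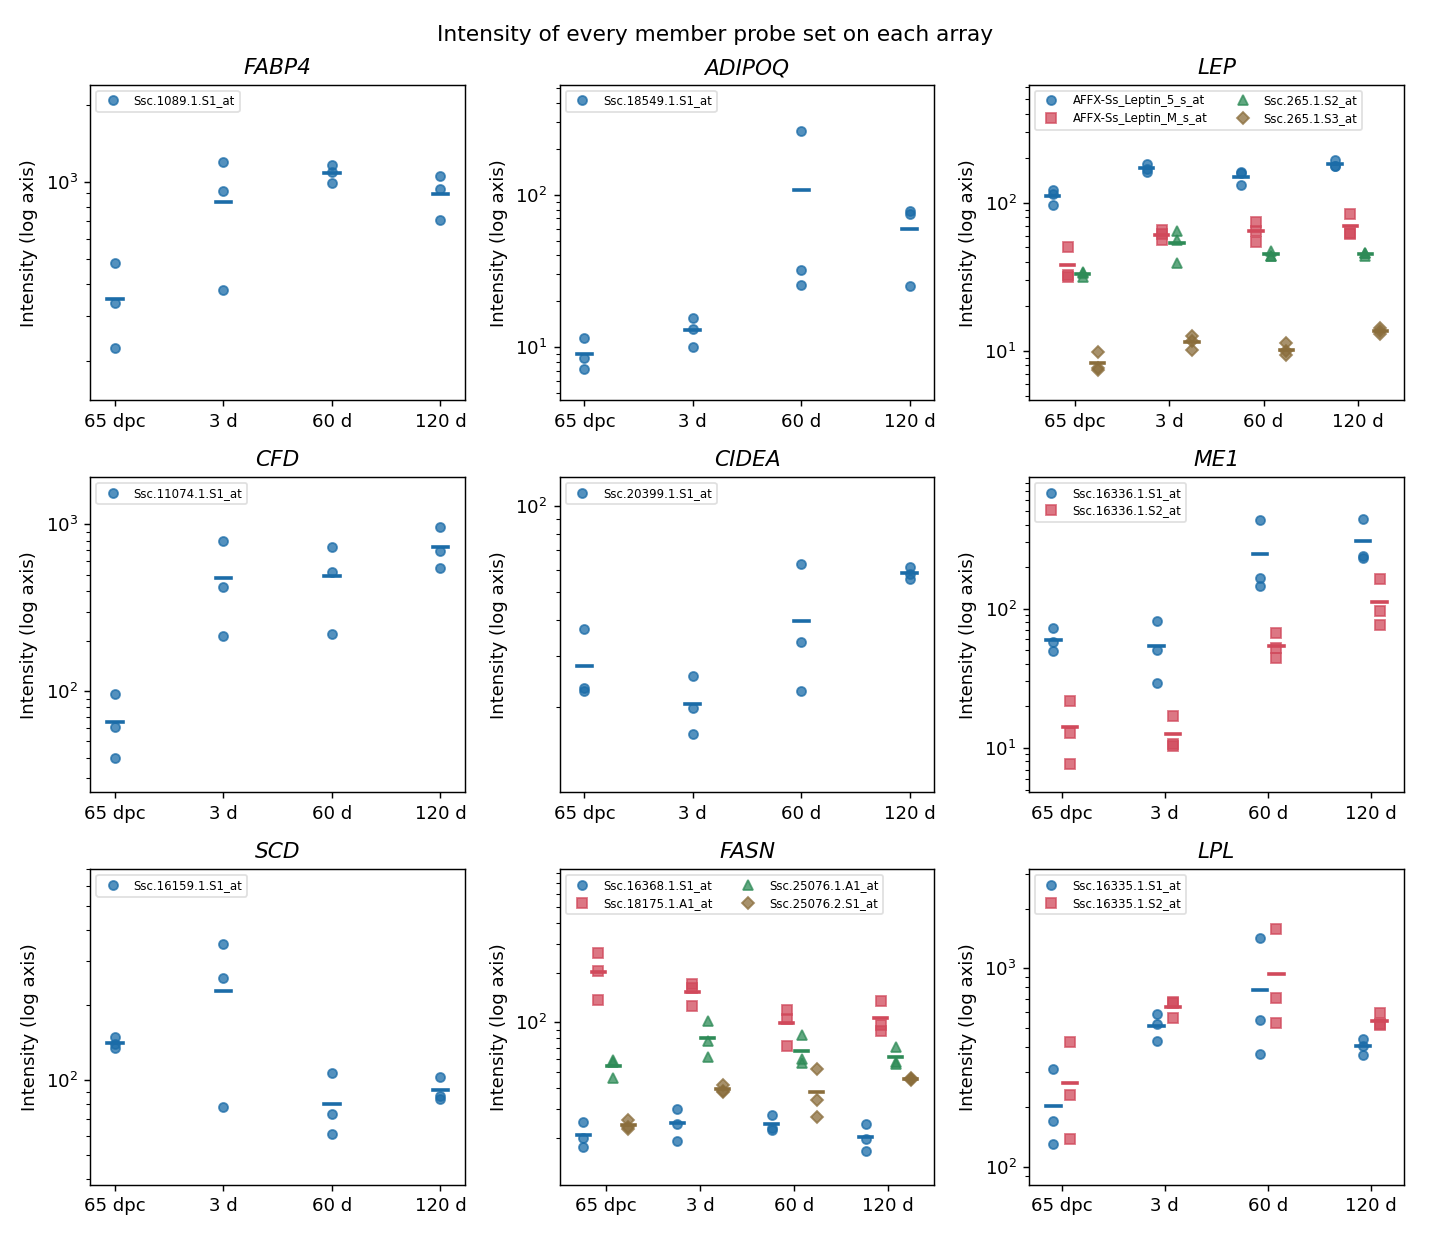
Intensity (log axis) of the 17 probe sets of the 9 genes on each array, by stage from 65 dpc to 120 days, with points for arrays and short bars at stage means. CFD climbs between the fetus and 3 days, ME1 between 3 and 60 days, ADIPOQ has 1 array of 263 at 60 days, and SCD spreads from 78.4 to 350 at 3 days.

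CFD, or adipsin, the complement protease secreted by adipocytes, had the largest change between the fetus and 3 days among the 13 tested probe sets. Ssc.11074.1.S1_at read 61.2, 39.6 and 96.4 in the fetus, 213, 420 and 790 at 3 days, 220, 515 and 728 at 60 days and 959, 695 and 546 at 120 days. No fetal array reached the lowest of the 9 arrays after birth, and the arrays within each later stage were far apart. CFD was higher by 2.39 ± 0.48 at 3 days (adjusted p = 0.00204), by 2.46 ± 0.48 at 60 days (adjusted p = 0.00170) and by 3.14 ± 0.48 at 120 days (adjusted p = 0.000260), each against 65 dpc. All 3 calls held whichever array was left out. The stage means after birth were 474 ± 292 at 3 days, 487 ± 255 at 60 days and 733 ± 209 at 120 days (SD, n = 3 each), and none of these stages was called against another.

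ADIPOQ, which encodes the hormone adiponectin, was near the dim end of the arrays before 60 days. Ssc.18549.1.S1_at read 8.49, 11.5 and 7.14 in the fetus and 10.04, 13.2 and 15.5 at 3 days. At 60 days it read 263, 25.4 and 32.2, and at 120 days 78.6, 25.1 and 75.1. All 6 arrays at 60 and 120 days were above all 6 earlier ones. The first 60-day array stood 9.14 times above the mean of the 2 others, a ratio higher than that of 99.96% of the tested probe sets on the same array. The same array was high for LPL and low for CFD (0.354 times the mean of the others), so it was not high for every adipocyte transcript.

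Only 3 of the 12 arrays held ADIPOQ above the level needed to enter the test, so the probe set was kept by its high stages. At 60 days against 65 dpc it was called, at 1.57 ± 0.53 (adjusted p = 0.0340). Leaving out any 1 fetal array ended the call (adjusted p = 0.0769, 0.0677 and 0.0704 for replicates 1, 2 and 3), and without the bright 60-day array it held with a smaller change of 0.73 (adjusted p = 0.0482). A pseudocount of 51 (adjusted p = 0.0557) or a fit of only the 6 arrays compared (0.0766) ended it too. It was not called at 120 days, at 1.34 ± 0.53 against 65 dpc (adjusted p = 0.0530) and at 1.17 ± 0.53 against 3 days (adjusted p = 0.252). Leaving out 60-day replicate 1 gave adjusted p of 0.000809 and 0.0186 for these comparisons. The 120-day change against 65 dpc also passed without 60-day replicate 2 (0.0344), 60-day replicate 3 (0.0482) or 120-day replicate 2 (0.0346). With all arrays it passed with a pseudocount of 1 (2.45, adjusted p = 0.0123), with array quality weights (1.18, 0.0192) and in a fit of only the 6 arrays compared (1.34, 0.00326). At 60 days against 3 days the change was 1.39 ± 0.53 (adjusted p = 0.213), and at 3 days against 65 dpc 0.17 ± 0.53 (adjusted p = 0.812).

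LEP, which encodes leptin, moved little. The tested probe set, Ssc.265.1.S2_at, read 33.7, 31.4 and 34.2 in the fetus, 64.1, 56.5 and 39.4 at 3 days, 43.6, 47.3 and 43.6 at 60 days and 43.5, 46.2 and 45.7 at 120 days. Every array after birth was above the 3 fetal ones. It was higher at 3 days against 65 dpc by 0.44 ± 0.12 (adjusted p = 0.0111), a call lost without 3-day replicate 1 (adjusted p = 0.0503), and was called in no other comparison. The control-named AFFX-Ss_Leptin_5_s_at averaged 111 ± 12.8 at 65 dpc, 171 ± 11.5 at 3 days, 150 ± 15.9 at 60 days and 183 ± 10.004 at 120 days (SD, n = 3 each). AFFX-Ss_Leptin_M_s_at averaged 38.1 ± 10.6, 61.1 ± 4.47, 64.7 ± 10.2 and 69.6 ± 12.7 in the same order. On all 4 LEP probe sets the fetus was the lowest stage, but the highest stage was 3 days on Ssc.265.1.S2_at and 120 days on the 3 others. The dimmest, Ssc.265.1.S3_at, stayed between 7.45 and 14.4.

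CIDEA, a protein of the lipid droplet surface that drives the growth of droplets, was lowest on average at 3 days and highest at 120 days, where its arrays agreed closely. Ssc.20399.1.S1_at read 22.7, 23.3 and 37.5 in the fetus, 16.1, 25.6 and 19.9 at 3 days, 33.7, 62.9 and 22.8 at 60 days and 58.1, 55.5 and 61.2 at 120 days. The 120-day arrays lay above all fetal and 3-day arrays, while the 60-day arrays ran from the fetal level to above the 120-day level. CIDEA was higher at 120 days by 0.94 ± 0.20 against 3 days (adjusted p = 0.0226) and by 0.71 ± 0.20 against 65 dpc (adjusted p = 0.0114). The first call was lost without 3-day replicate 1 (adjusted p = 0.0831), 3-day replicate 3 (0.0574) or 120-day replicate 1 (0.0873), 2 (0.0773) or 3 (0.0649), and the second held whichever array was left out. On the spiked-control scale the change of CIDEA against 65 dpc was 0.42 and not called (adjusted p = 0.101), nor was it without both 65 dpc replicate 2 and 60-day replicate 1 (0.65, adjusted p = 0.0508). CIDEA passed the level needed for testing on 5 arrays.

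ME1, the cytosolic malic enzyme that supplies NADPH, was the 1 member gene called between 3 and 60 days, and both its probe sets were. Ssc.16336.1.S1_at read 57.3, 72.6 and 49.9 in the fetus, 29.2, 50.2 and 81.2 at 3 days, 166, 430 and 146 at 60 days and 438, 239 and 230 at 120 days. Ssc.16336.1.S2_at read 12.8, 21.6 and 7.67 in the fetus, 10.3, 10.7 and 16.9 at 3 days, 51.7, 67.1 and 43.9 at 60 days and 163, 96.6 and 76.4 at 120 days. Every array at 60 and 120 days was above every earlier array on both probe sets, whose log2 values had r = 0.94 over the 12 arrays. ME1 was higher at 60 days against 3 days by 1.76 ± 0.37 (adjusted p = 0.0413) and 1.16 ± 0.22 (adjusted p = 0.0248), given as Ssc.16336.1.S1_at and then Ssc.16336.1.S2_at. At 120 days against 3 days it was higher by 2.12 ± 0.37 (adjusted p = 0.00903) and 1.94 ± 0.22 (adjusted p = 0.000970). Against the fetus it was higher at 120 days by 1.95 ± 0.37 (adjusted p = 0.00119) and 1.89 ± 0.22 (adjusted p = 4.34e-05), and at 60 days by 1.59 ± 0.37 (adjusted p = 0.00546) and 1.11 ± 0.22 (adjusted p = 0.00181).

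The ME1 calls against the fetus held without any 1 array. At 60 days against 3 days, the call on Ssc.16336.1.S1_at was lost without 7 arrays, which were fetal replicate 1 (adjusted p = 0.0592), 3-day replicates 1 and 2 (0.159 and 0.124), 60-day replicates 1 and 2 (both 0.0692) and 120-day replicates 2 and 3 (0.0622 and 0.0525). The call on Ssc.16336.1.S2_at was lost without 3-day replicate 1 (0.107) or 2 (0.0942) or 60-day replicate 1 (0.0698) or 2 (0.0623). In the comparison of 120 days with 3 days, Ssc.16336.1.S1_at lost its call without 120-day replicate 1 (0.0529), and Ssc.16336.1.S2_at kept it without any 1 array.

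FASN, fatty acid synthase, gave opposite answers on different probe sets. Ssc.18175.1.A1_at, the brightest, read 205, 264 and 137 in the fetus, 171, 161 and 126 at 3 days, 120, 71.5 and 105 at 60 days and 96.7, 134 and 88.9 at 120 days. Its 60-day and 120-day arrays were all below its fetal arrays, and against the fetus it was lower at 60 days (log2 change -0.88 ± 0.24, adjusted p = 0.0122) and at 120 days (log2 change -0.78 ± 0.24, adjusted p = 0.0178). Fetal replicate 2 was needed for the 60-day call (adjusted p = 0.0506 without it), and the 120-day call failed without fetal replicate 2 (0.0749) or 120-day replicate 1 (0.0568) or 3 (0.0702). Ssc.25076.2.S1_at went the other way. It read 23.1, 22.6 and 25.5 in the fetus, 41.9, 38.4 and 37.7 at 3 days, 33.9, 52.4 and 26.7 at 60 days and 45.1, 46.3 and 45.4 at 120 days, with all arrays after birth above the fetal ones.

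On Ssc.25076.2.S1_at FASN was higher by 0.43 ± 0.13 at 3 days (adjusted p = 0.0214), by 0.37 ± 0.13 at 60 days (adjusted p = 0.0459) and by 0.57 ± 0.13 at 120 days (adjusted p = 0.00399), each against 65 dpc. The 120-day call held without any 1 array, but on the spiked-control scale the change was 0.30 and not called (adjusted p = 0.106). The 3-day call failed on that scale (0.26, adjusted p = 0.166) and when fetal replicate 1 or 2 (adjusted p = 0.0548 and 0.0605) or 3-day replicate 1 (0.0659) was left out. The 60-day call held only without 60-day replicate 3, and with any of the 11 other arrays left out its adjusted p lay between 0.0526 and 0.168. This probe set passed the level needed for testing on 7 arrays. Ssc.25076.1.A1_at, at 45.9 to 101 over the 12 arrays, was called in no comparison, and Ssc.16368.1.S1_at, at 16.6 to 29.9, was too dim to test. Ssc.18175.1.A1_at and Ssc.25076.2.S1_at had r = -0.66 over the 12 arrays, where the ME1 pair had 0.94 and the LPL pair 0.98. Which FASN probe set follows the coding transcript was not tested, so no direction is given for the gene.

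SCD, the desaturase that makes oleate from stearate, was not called in any comparison with all 12 arrays on the deposited scale. Ssc.16159.1.S1_at read 149, 134 and 139 in the fetus, 350, 256 and 78.4 at 3 days, 107, 61.0 and 73.5 at 60 days and 86.4, 103 and 84.3 at 120 days. All arrays at 60 and 120 days were below all fetal arrays, and the 3-day arrays held the highest values of the series and also 1 of the lowest. At 3 days, replicate 3 had 0.259 times the mean of the other arrays, and 0.340% of the tested probe sets had a lower ratio on that array. Its actin ratio was 2.58, against 4.69 and 3.56 on the other 3-day arrays, and the part of that difference in the low SCD value was not tested. The changes were 0.43 ± 0.37 at 3 days against 65 dpc (adjusted p = 0.371), -1.12 ± 0.37 at 60 days against 3 days (adjusted p = 0.150) and -0.96 ± 0.37 at 120 days against 3 days (adjusted p = 0.174). Against the fetus they were -0.69 ± 0.37 at 60 days (adjusted p = 0.153) and -0.53 ± 0.37 at 120 days (adjusted p = 0.252). Between 60 and 120 days the later minus earlier change was 0.16, with an interval from -0.64 to 0.97.

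Without 3-day replicate 3, SCD passed in 5 of the 6 comparisons. It was then higher at 3 days against 65 dpc (log2 change 0.99, adjusted p = 0.00396) and lower at 60 days against 3 days (-1.68, 0.00509) and at 120 days against 3 days (-1.52, 0.00576). The falls at 60 and 120 days against 65 dpc kept their size and passed at 0.0126 and 0.0349. With all 12 arrays, the spiked-control scale also called SCD lower at 60 days (-1.03, adjusted p = 0.0333) and at 120 days (-0.92, 0.0456) against 65 dpc. A fit of only the 6 arrays compared did so as well (adjusted p = 0.0395 at 60 days and 0.0175 at 120 days). Array quality weights called it higher at 3 days against 65 dpc (0.69, adjusted p = 0.0254) and lower at 60 days (-1.46, 0.0124) and 120 days (-1.23, 0.000776) against 3 days. The values with all 12 arrays on the deposited scale stand as the result.

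**Figure D2:**
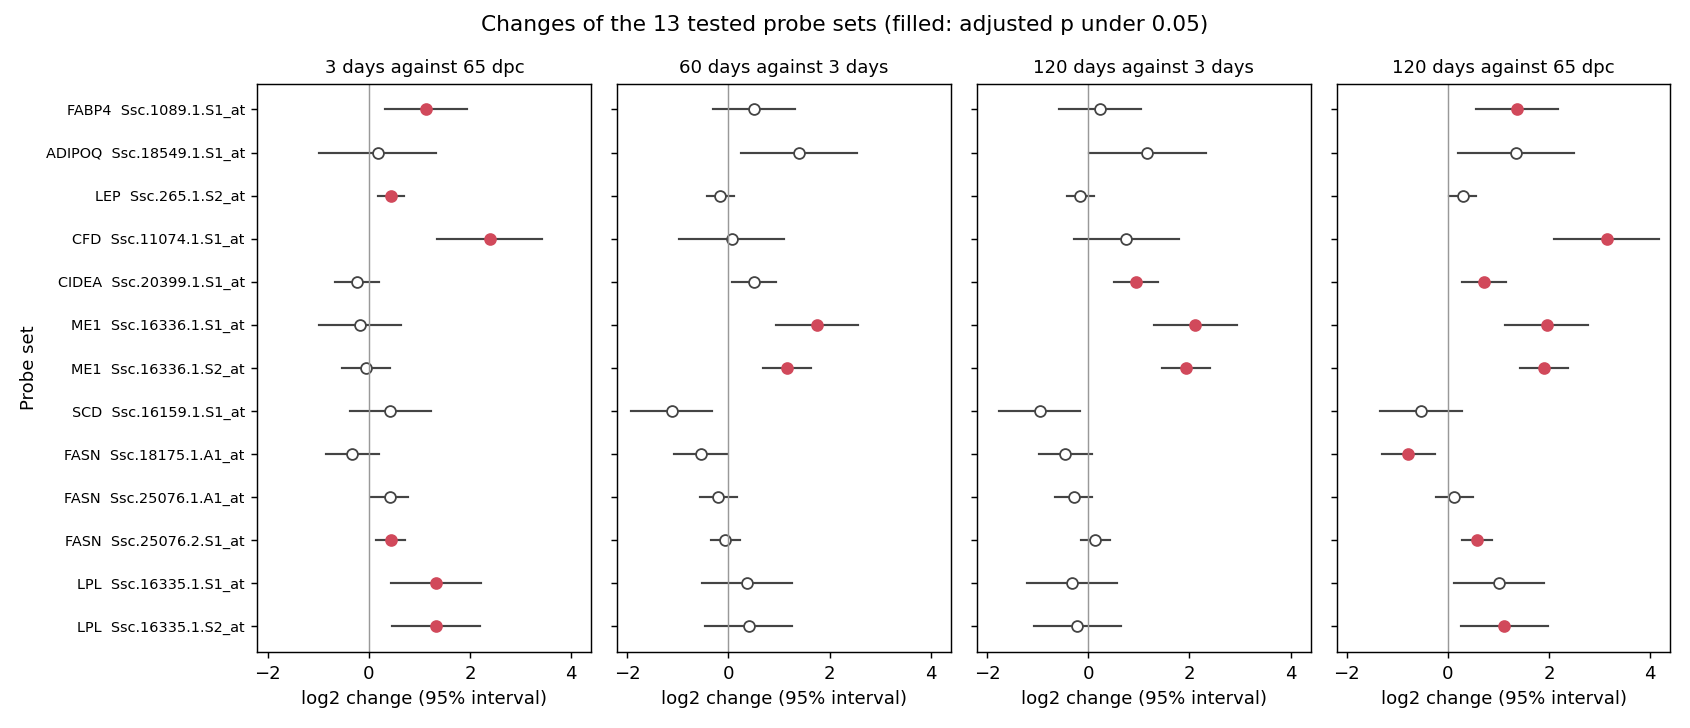
Log2 change of the 13 tested probe sets with 95% confidence intervals in 4 of the 6 comparisons, 1 panel each, later stage minus earlier stage, with filled points where the adjusted p is under 0.05. The filled points lie to the right of 0 except for FASN Ssc.18175.1.A1_at at 120 days against 65 dpc.

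The counts are read against the share of all tested probe sets that pass. Over the 4 stages, limma's F test called 10 of the 13 probe sets, while it called 46.9% of all 16166, and ADIPOQ (adjusted p = 0.0502), SCD (0.0727) and FASN Ssc.25076.1.A1_at (0.215) were the 3 not called. At 3 days against 65 dpc, 6 of 13 were called, all higher, against a background of 43.0% called and 20.3% called higher. The share called in either direction was close to that of all probe sets, and the share called higher was above it. At 120 days against 65 dpc, 7 were higher and 1 lower (background 48.4%, with 23.4% higher). Likewise at 60 days, 8 were higher and 1 lower than at 65 dpc (background 39.1%, with 18.7% higher). These 3 comparisons share the fetal arrays.

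Between stages after birth few probe sets of any kind were called. At 60 days against 3 days the 2 ME1 probe sets were higher, where 1.53% of all were called and 0.786% were higher. At 120 days against 3 days, CIDEA and both ME1 probe sets were higher, where 4.42% of all were called and 2.29% were higher. At 120 days against 60 days limma called none of the 13 and 0.00% of the 16166, of which 1021 had an unadjusted p under 0.05. Since ADIPOQ, CIDEA, ME1 Ssc.16336.1.S2_at, FASN Ssc.25076.2.S1_at and LEP were above the level needed for testing on 3, 5, 6, 7 and 9 arrays, a test was possible only through their brighter stages, and the counts describe these probe sets without supporting a claim about the group. With arrays centred on the spiked controls, only CFD passed at 3 days against 65 dpc. Of the 13 probe sets, 4 were then higher at 120 days against 65 dpc (FABP4, CFD and both ME1 probe sets) and 2 lower (FASN Ssc.18175.1.A1_at and SCD), where the deposited scale gave 7 and 1. At 60 days against 65 dpc 7 were higher and 2 lower.

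Arrays of both stages stood apart, with no overlap in intensity, for 6 of the 13 probe sets at 3 days against 65 dpc, where 53.0% of all tested probe sets did. Such a gap was found for 11 of 13 at 60 days and 12 of 13 at 120 days against 65 dpc, with backgrounds of 45.8% and 60.7%. After birth it was found for 4 of 13 at 60 days and 5 of 13 at 120 days, both against 3 days (backgrounds 20.4% and 31.7%), and for 1 of 13 at 120 days against 60 days (13.9%).

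The pathways around the members were described with lists of genes, 1 probe set a gene, over 5765 genes measured. For fatty acid uptake and binding, 9 of 11 measured genes were higher at 3 days against 65 dpc and none lower, with a median change of 1.16, where 22.7% of all genes were higher and the median gene stood at 0.07. With spiked-control centring 5 of the 11 were higher and none lower. The largest were FABP3, the muscle fatty acid binding protein, at 2.70 ± 0.35 (adjusted p = 0.000122), ACSL1, which activates long-chain fatty acids, at 2.56 ± 0.25 (adjusted p = 2.17e-05), and ANGPTL4, an inhibitor of LPL, at 1.88 ± 0.37 (adjusted p = 0.00201). ACSL1 read 1309, 1067 and 1236 at 3 days, against 144, 222 and 203 in the fetus. Of these 11, 8 were higher at 120 days against 65 dpc (background 24.2%), VLDLR, a receptor for triglyceride-rich lipoproteins, by 1.34 ± 0.25 (adjusted p = 0.00100). FABP3 was lower at 120 days against 3 days (log2 change -1.37, adjusted p = 0.0450), though still higher than at 65 dpc (1.33, adjusted p = 0.00755). No other gene of the list was called between 3 and 120 days, where 4.42% of all probe sets were. Muscle fibres, endothelium and adipocytes all use genes of this list.

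For fatty acid synthesis and NADPH supply the counts ran the other way. Of 10 measured genes, 1 was higher and 3 lower at 3 days against 65 dpc (background 22.7% higher and 19.1% lower), with a median of -0.25. The count was 2 higher and 6 lower at 120 days against 65 dpc (background 24.2% and 22.7%), with a median of -0.70. On the spiked-control scale 2 were higher and 8 lower at 120 days. Among all tested probe sets that scale called 1481 higher and 6596 lower in this comparison, where the deposited scale called 3778 and 4048. The step from 6 to 8 lower genes in the list therefore cannot be told apart from the shift of all probe sets. The 2 higher genes were ME1 and ACSS2, which makes acetyl-CoA from acetate and read 234, 194 and 189 at 120 days, against 62.7, 80.5 and 95.3 in the fetus (1.18 ± 0.21, adjusted p = 0.000730). FASN counts here through Ssc.18175.1.A1_at and is among the 6 lower genes. Counted through Ssc.25076.2.S1_at, an alternative chosen after seeing the data, FASN would be among the higher ones, with 3 higher and 5 lower.

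The other lower genes at 120 days against 65 dpc were ELOVL6, FADS1, PGD, IDH1 and SLC25A1. PGD, an NADPH source in the pentose phosphate pathway, read 98.5, 80.3 and 74.7 at 120 days, against 202, 184 and 315 in the fetus. PGD was lower (log2 change -1.24 ± 0.19, adjusted p = 0.000244). IDH1, the cytosolic isocitrate dehydrogenase and another NADPH source, was lower (-1.35 ± 0.30, adjusted p = 0.00325). ELOVL6, which lengthens palmitate (-1.13 ± 0.28, adjusted p = 0.00612), FADS1, a desaturase of polyunsaturated fatty acids (-1.22 ± 0.24, adjusted p = 0.00152), and SLC25A1, the mitochondrial citrate carrier (-0.63 ± 0.17, adjusted p = 0.00933), were lower too. These calls held without any 1 array. ME1 thus stood among the higher genes of a list in which PGD and IDH1, which also supply NADPH, were lower. ACACA was too dim to test, and ACLY had no matching symbol.

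**Figure D3:**
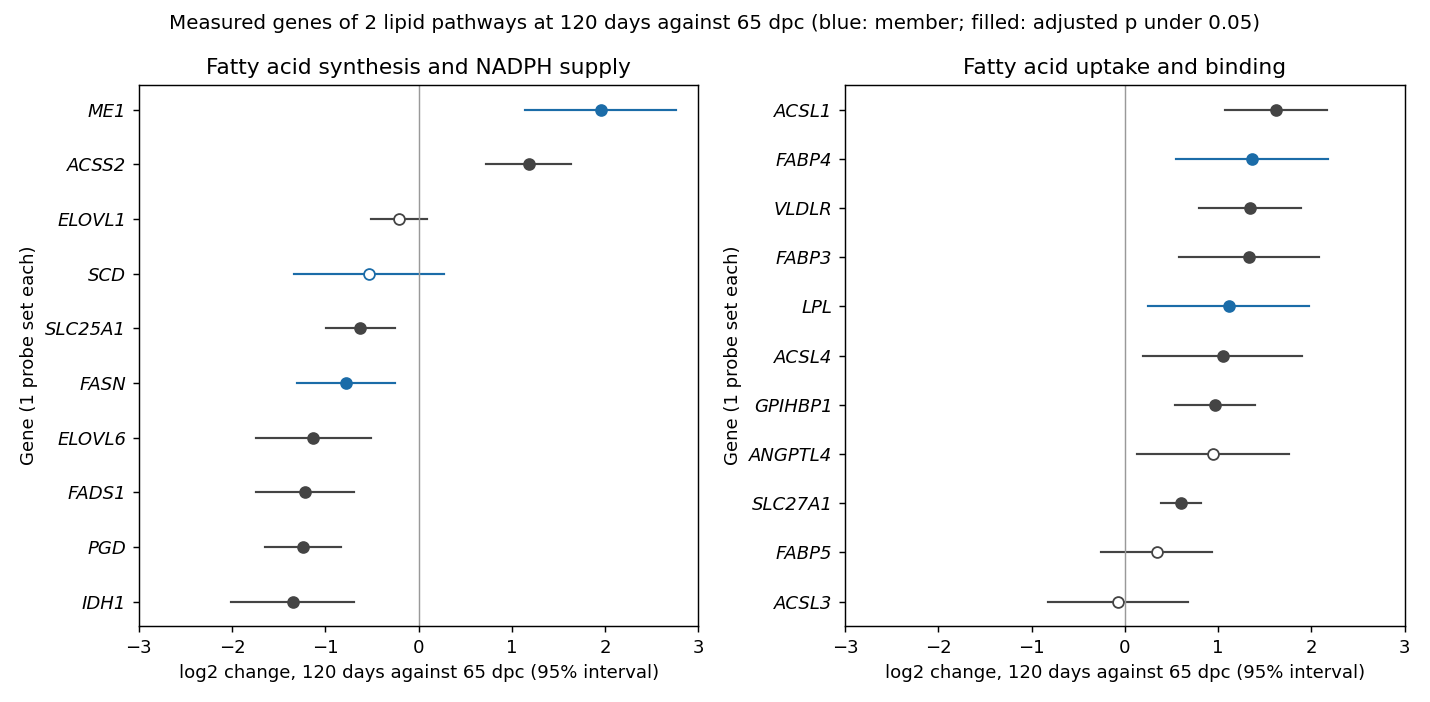
Log2 change at 120 days against 65 dpc with its 95% confidence interval for the measured genes of fatty acid synthesis and NADPH supply (left) and of fatty acid uptake and binding (right), in blue for the followed genes and filled where the adjusted p is under 0.05. Among synthesis genes ME1 and ACSS2 lie above 0 and the 8 others, FASN through Ssc.18175.1.A1_at included, below it, 6 of them called, and 8 of 11 uptake genes are called above 0 (5 on the spiked-control scale). Of all genes, 24.2% were called higher and 22.7% lower.

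For triglyceride synthesis and the droplet coat, 4 of 15 measured genes were higher and 1 lower at 3 days against 65 dpc (background 22.7% and 19.1%). At 120 days 7 were higher and 1 lower (background 24.2% and 22.7%), and 3 and 2 on the spiked-control scale. GPD1, which makes the glycerol backbone, was the largest. It read 2668, 2568 and 2716 at 120 days, against 185, 336 and 136 in the fetus, a change of 3.56 ± 0.37 (adjusted p = 2.38e-05), and at 3 days it was higher by 2.30 ± 0.37 (adjusted p = 0.000563). DGAT2, the last enzyme of triglyceride synthesis, was higher by 0.96 ± 0.16 at 120 days (adjusted p = 0.000429). PLIN2, the droplet coat protein of most cells, was higher by 1.90 ± 0.39 at 3 days (adjusted p = 0.00227) and was not called at 120 days against 65 dpc. PLIN3, a related coat protein, was lower at 120 days (-1.40 ± 0.17, adjusted p = 7.09e-05). For lipolysis, 3 of 6 genes were higher at 3 days and 4 at 120 days and none lower (2 and 1 on the spiked-control scale). Of all genes, 22.7% and 24.2% were higher at these stages. Among the lipolysis genes PNPLA2, the main triglyceride lipase, was higher by 1.63 ± 0.44 at 3 days (adjusted p = 0.0101). LIPE, hormone-sensitive lipase, was called at 60 days against 65 dpc, by 1.45 ± 0.43 (adjusted p = 0.0190), with 84.8, 259 and 38.0 at 60 days, against 24.3, 23.5 and 22.0 in the fetus.

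Among 14 measured regulators of adipocyte formation and lipogenesis, 5 were higher and 1 lower at 3 days against 65 dpc (background 22.7% and 19.1%), and 8 were higher and 2 lower at 120 days (background 24.2% and 22.7%). The spiked-control scale gave 4 higher and 1 lower at 3 days, and 5 higher and 3 lower at 120 days. CEBPA, a driver of adipocyte differentiation, was higher at 3 days by 0.59 ± 0.12 (adjusted p = 0.00279). SREBF1, the activator of fatty acid synthesis genes, was dim but higher at 3 days by 0.53 ± 0.11 (adjusted p = 0.00276) and at 120 days by 0.47 ± 0.11 (adjusted p = 0.00452), against 65 dpc. On the spiked-control scale CEBPA at 3 days (adjusted p = 0.0598) and SREBF1 at 120 days (0.119) missed the threshold. SREBF2, its relative for cholesterol synthesis, read 123, 139 and 124 at 120 days, against 496, 717 and 258 in the fetus (-1.67 ± 0.31, adjusted p = 0.00109). INSIG1, a sterol-responsive brake on both factors, was lower at 120 days against 65 dpc by a log2 change of -1.40 ± 0.35 (adjusted p = 0.00628). PPARG was too dim to test. The other higher genes at 3 days were CEBPD, at 2.37 (adjusted p = 0.0236), GATA2, at 0.91 (0.00325), and WNT10B, at 0.69 (0.00110). GATA2, GATA3 and WNT10B were higher at 120 days, and CEBPB, at 1.97 (0.0114), and KLF15, at 1.74 (0.0110), had the largest rises there. The list holds brakes such as INSIG1 as well as drivers, so its counts give no direction for adipocyte formation.

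SREBF2 and INSIG1 were also lower at 120 days against 3 days, by -1.31 ± 0.31 (adjusted p = 0.0371) and -1.45 ± 0.35 (adjusted p = 0.0402). Both calls were lost without fetal replicate 1, 3-day replicate 1, 3-day replicate 2 or any of the 120-day arrays, at adjusted p up to 0.137 for SREBF2 and 0.164 for INSIG1. INSIG1 read 418, 253 and 122 at 3 days and SREBF2 481, 353 and 251, so replicate 3 was the lowest 3-day array for both, as it was for SCD. The actin ratio of that array, 2.58, lay in the fetal range, and its part in these low values was not tested. The arrays at 60 and 120 days lay below all fetal and 3-day arrays for both genes. INSIG2, of the same list, went the other way. It was higher at 120 days against 3 days by a log2 change of 0.66 (adjusted p = 0.0467), and was also called higher at 120 days against 65 dpc.

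**Figure D4:**
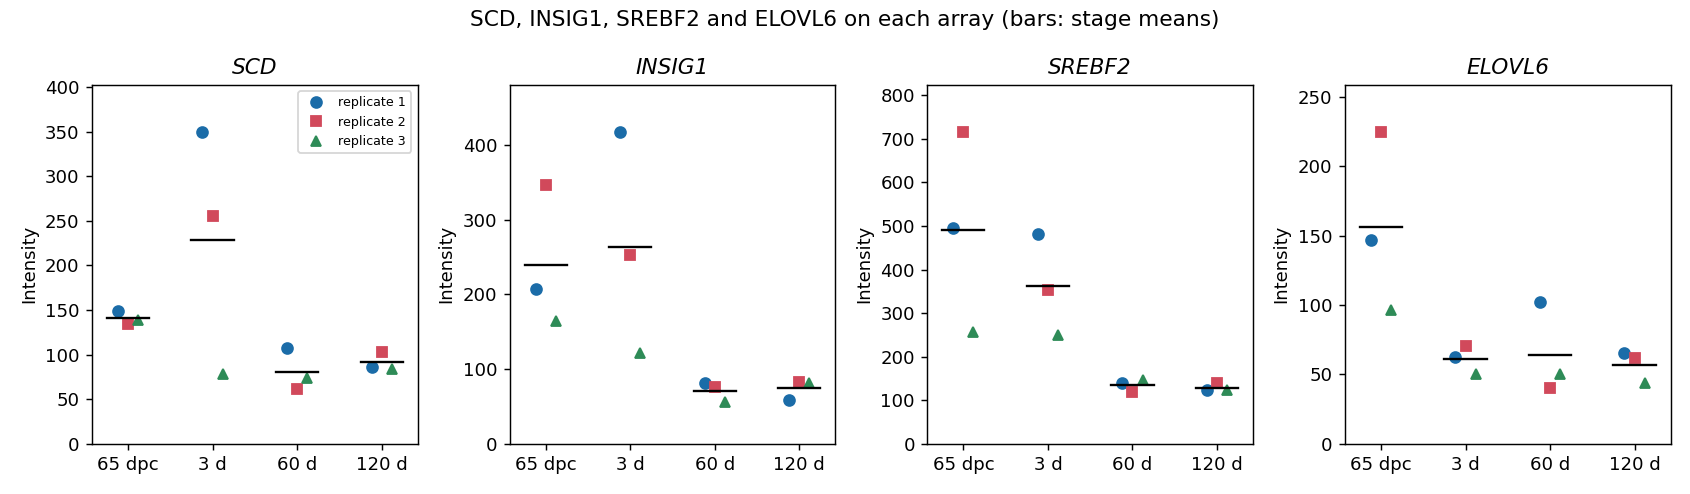
Intensities of SCD, INSIG1, SREBF2 and ELOVL6 on each of the 12 arrays, stages from 65 dpc to 120 days, with bars at the stage means. At 3 days replicate 3 is the lowest array for SCD (78.4), INSIG1 (122), SREBF2 (251) and ELOVL6 (50.2), and the arrays at 60 and 120 days lie below the fetal ones for the first 3 genes.

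Of the 9 adipokines measured, 6 were higher at 3 days against 65 dpc and 5 at 120 days, and none was lower (4 at each stage on the spiked-control scale), where 22.7% and 24.2% of all genes were higher. Beside CFD these included AGT, angiotensinogen, higher at 120 days by 1.96 ± 0.44 (adjusted p = 0.00339), NAMPT, an enzyme of NAD synthesis that is also secreted, by 1.65 ± 0.27 (adjusted p = 0.000464), and RETN, resistin, by 0.69 ± 0.12 (adjusted p = 0.000535).

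Markers of the cell types that a muscle sample can hold were set beside the members. The summed intensity of 10 adipocyte genes with a symbol, which include 5 of the members, was 681 to 941 in the fetus, 2064 to 3355 at 3 days, 3505 to 4512 at 60 days and 4354 to 5067 at 120 days, with no overlap between the fetus and later stages. Of the 9 that were tested, 6 were higher at 3 days against 65 dpc and 6 at 120 days, and none lower (background 22.7% and 24.2%). Of these, 2 were higher at 3 days and 4 at 120 days on the spiked-control scale, and none lower. GPD1, which muscle fibres also make, and FABP4 were the 2 largest contributors to this sum. The defining PLIN1 had no matching symbol, PPARG was below the level for testing, and ADIPOQ reached at most 15.5 at 3 days. The sum of 11 muscle fibre genes was 62563 to 73544 after birth, against 31646 to 45262 in the fetus. Of these 11, 9 were higher at 3 days (6 on the spiked-control scale), where 22.7% of all genes were. MYH2, a fast myosin, was higher by 4.69 ± 0.18 (adjusted p = 5.70e-08).

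Connective tissue markers moved the opposite way. The sum of 9 genes of fibroblasts and fibro-adipogenic progenitors, the cells that give rise to adipocytes in muscle, was 4063 to 8252 after birth, against 11167 to 17970 in the fetus. At 3 days against 65 dpc 7 of 9 were lower, where 19.1% of all genes were. COL1A2, a collagen chain, was lower by a log2 change of -2.62 ± 0.47 (adjusted p = 0.00107). Endothelial sums overlapped between all stages, at 2352 to 3674 after birth and 2253 to 3773 in the fetus. These sums include FABP4, the brightest of their 13 genes, so they are not independent of that member. Of 13 endothelial genes 3 were higher and 1 lower at 3 days (background 22.7% and 19.1%), which on the spiked-control scale became 1 higher and 3 lower, and the 3 higher ones on the deposited scale were FABP4, FLT1 and GPIHBP1, the capillary anchor of LPL. At 120 days against 65 dpc, TIE1, EGFL7, FABP4 and GPIHBP1 were higher (background 24.2%). PECAM1 (-1.08, adjusted p = 0.00938), CDH5 and CLDN5 were lower (background 22.7%). The spiked-control scale gave 2 higher and 3 lower at 120 days. Macrophage sums were 745 to 2435 after birth and 646 to 7050 in the fetus, with 1 of 7 genes higher and none lower at 3 days (background 22.7% and 19.1%). What shifts in these cell types add to the changes of the members was not tested.

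The members did not share 1 course. By the mean over arrays of the brightest tested probe set, LEP and SCD were highest at 3 days, FABP4, ADIPOQ and LPL at 60 days, and CFD, CIDEA and ME1 at 120 days. For ADIPOQ that place rests on the array of 263, since its median was 75.1 at 120 days and 32.2 at 60 days. FASN had a different highest stage on each tested probe set, which was the fetus on Ssc.18175.1.A1_at, 3 days on Ssc.25076.1.A1_at and 120 days on Ssc.25076.2.S1_at. Within the 60-day stage replicate 1 was the highest for ADIPOQ, LPL, SCD and FASN (Ssc.18175.1.A1_at), replicate 2 for LEP, CIDEA and ME1, and replicate 3 for FABP4 and CFD. Over the 12 arrays, the gene most like each member among 5611 genes was HABP2 for FABP4 (Pearson r = 0.96), ABCD3 for ADIPOQ (0.90), NIT1 for LEP (0.96), LRG1 for CFD (0.98), DTNBP1 for CIDEA (0.91) and RPAP2 for ME1 (0.95). For LPL it was ANKMY2 (0.97).

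For SCD the nearest genes were TSPAN9 (r = 0.93), FDPS (0.89) and MSMO1 (0.88), of which the last 2 encode enzymes of cholesterol synthesis. For FASN, through Ssc.18175.1.A1_at, they were SQLE (0.94), also of cholesterol synthesis, PCNA (0.94), a replication factor, and CCNC (0.93). FDPS averaged 223 ± 90.1 at 65 dpc, 500 ± 292 at 3 days, 144 ± 18.8 at 60 days and 162 ± 33.9 at 120 days (SD, n = 3 each), the same order of stages as SCD. SQLE averaged 217 ± 157, 115 ± 58.9, 45.4 ± 14.2 and 48.2 ± 2.64 in the same stages. FDFT1, a further enzyme of cholesterol synthesis, had another course and was among the nearest genes of CIDEA (r = 0.88). Its averages were 535 ± 23.9, 460 ± 42.2, 684 ± 252 and 753 ± 43.1 in these stages. The 12 points of each r share their stage, so a high r is a description of the course over stages and carries no test.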

How the data were processed

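Muscle RNA, isolated with Trizol per the labels' protocols, was labelled and measured on Affymetrix porcine arrays. The deposited values are linear intensities, for which the submitters' processing notes name GCOS 1.4. How the authors summarised and scaled them is not stated in the labels or notes. Of 24123 probe sets, 124 control probe sets were set aside. Values were taken to log2(value + 21), where 21 is the 25th percentile, and a probe set was kept if on 3 or more arrays it exceeded that array's 40th percentile, as 16166 did (67.4%). The platform annotation of 2016 names 1 gene for 10069 probe sets and several for 198, and 13732 are not listed in it. The 9 members were found by Entrez identifier in the RefSeq gene table, with 0 symbols changed. Where a gene of a list had several kept probe sets, the one of highest mean stood for it.

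All 12 arrays entered 1 fit in limma 3.58.1 (R 4.3.3) with stage means and a trended variance, which left 8 residual degrees of freedom and a prior of 4.26. Two-sided tests covered 6 comparisons of stages and the F test, with calls at a Benjamini-Hochberg adjusted p under 0.05 over all kept probe sets. The number of arrays limits the precision. Data were simulated for 3 days against 65 dpc with 16166 probe sets, of which 100 were changed at each size. Of these, 63% of 2-fold, 96% of 4-fold and 100% of 8-fold changes were recovered, with 15 false calls among the unchanged probe sets. In the real data 43.0% of probe sets were called in that comparison, so these recoveries need not hold there. The members and the 13 gene lists were chosen with earlier results of these data known. The text names all member probe sets. Other named genes were drawn mainly from up to 4 called genes of a list per comparison with the largest change. A fixed set of genes where measured, and for each member the genes of highest Pearson r, were also drawn on. Not every gene that these rules allow is named. As alternatives the pseudocount (1 or 51), the filter (none, or a stricter 60th percentile), the scaling (quantile, median or hybridization controls), the variance model and array weights were varied, as were the arrays in the fit and a block for replicate number. Genome coordinates and sequences were not used here. Python 3.11.15 with pandas 2.3.3 and matplotlib 3.10.9 drew the figures.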

Additional observations from a re-analysis of the deposited data

How the results depend on the processing

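Leaving out each array in turn gave 4 to 11 member probe sets called over the 4 stages (10 with all arrays), 1 to 7 at 3 days against 65 dpc (6), 0 to 3 at 60 days against 3 days (2), 0 to 0 at 120 days against 60 days (0), 1 to 4 at 120 days against 3 days (3), 6 to 10 at 120 days against 65 dpc (8) and 6 to 10 at 60 days against 65 dpc (9). Arrays centred on the hybridization controls left 1 call, CFD, at 3 days against 65 dpc, and of the 7 calls of higher intensity at 120 days against 65 dpc they left 4, with 2 lower against 1. At 60 days against 3 days 1 call was left with a pseudocount of 51, with the replicate number as a block or with only the 6 arrays compared. Without both 65 dpc replicate 2 and 60-day replicate 1, 0 were left, where 111 of all probe sets were called against 247 with all arrays. Array quality weights gave 9 calls at 120 days against 3 days, when 4756 of all probe sets were called against 714. The ADIPOQ change at 120 days against 60 days, -0.22, turned to 0.62 without 60-day replicate 1, with or without 65 dpc replicate 2, and to 0.14 without 120-day replicate 2, in a range from -0.69 to 0.62 over the 12 arrays. The cause of these shifts was not tested.

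Arrays with the same replicate number in different stages did not deviate together, with a median r of 0.09 over 18 pairs (-0.42 to 0.30). Over 36 pairs of other numbers the median was -0.04 (-0.41 to 0.65), and 3 of 12 arrays correlated best with their own number. The r of 0.65 was that of 65 dpc replicate 2 with 60-day replicate 1. On both arrays LPL and ADIPOQ were the highest of their stage. For LPL Ssc.16335.1.S2_at they read 2.33 and 2.54 times the mean of the other arrays of the stage. What these 2 arrays share was not tested. With the replicate block 10 member probe sets were called over the 4 stages, 6 at 3 days against 65 dpc, 3 at 120 days against 3 days, 9 at 120 days against 65 dpc (ADIPOQ among them, adjusted p = 0.0389) and 8 at 60 days against 65 dpc. Background levels of the arrays were not used here, so how far dim probe sets such as ADIPOQ stood above background is unknown. Apart from leaving out single arrays, no other setting moved a total of member calls in a comparison by over 1.5 times. Over all probe sets, the 247 calls at 60 days against 3 days became 926 with array quality weights, 161 with the replicate block and 39 with only the 6 arrays. The 714 at 120 days against 3 days became 1525 with only the 6 arrays and 1147 without both 65 dpc replicate 2 and 60-day replicate 1. Without the filter 1 call, against 0, was made at 120 days against 60 days.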

Other observations

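SLC2A4, ADIPOR2 and IRS1, through which muscle takes up glucose and answers adiponectin and insulin, were higher after birth than in the fetus. Of 6 measured genes in the list of adipokine receptors and insulin signalling, 3 were higher and none lower at 3 days and at 120 days, each against 65 dpc, where 22.7% and 24.2% of all genes were higher. On the spiked-control scale it was 3 higher and 0 lower at 3 days, and 2 higher and 1 lower at 120 days. SLC2A4, the insulin-responsive glucose transporter, averaged 10.9 ± 3.73, 64.4 ± 33.5, 158 ± 49.8 and 96.2 ± 20.8 over the 4 stages (SD, n = 3 each). It was higher at 60 days against 65 dpc by 2.46 ± 0.26 (limma, adjusted p = 3.08e-05). ADIPOR2, an adiponectin receptor, was higher at 60 days against 65 dpc by 1.56 ± 0.19 (adjusted p = 8.69e-05), and IRS1, the docking protein of the insulin receptor, was higher at 120 days against 65 dpc by 1.28 ± 0.20 (adjusted p = 0.000298). ADIPOR1, the other adiponectin receptor, averaged 748 ± 36.2, 713 ± 58.1, 853 ± 172 and 833 ± 91.3 over the 4 stages and was called in no comparison.

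Of 4 measured genes in the list of brown or beige fat, 1 was higher and 1 lower at 3 days against 65 dpc, where 22.7% of all genes were higher and 19.1% lower. Of these, UCP3 and CIDEA were higher and TMEM26 was lower at 120 days against 65 dpc, where 24.2% were higher and 22.7% lower. On the spiked-control scale it was 1 higher and 1 lower at each stage. UCP3, a mitochondrial carrier that is strongest in skeletal muscle, was higher at 60 days against 65 dpc by 3.98 ± 0.41 (limma, adjusted p = 2.58e-05). PPARGC1A, a coactivator of mitochondrial genes that muscle fibres also make, read 293, 267 and 1257 at 60 days, against 63.2, 85.5 and 240 in the fetus. It was higher by 1.87 ± 0.61 (adjusted p = 0.0285), and 65 dpc replicates 1 and 2 and 60-day replicate 3 were each needed for that call (adjusted p up to 0.115 without them). TMEM26, a surface protein, read 23.9, 20.8 and 17.5 at 60 days, against 232, 351 and 218 in the fetus (log2 change -2.76 ± 0.16, adjusted p = 6.77e-07).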
